A study of Homo sapiens with 12 samples.

Results

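The genes described here are 10 genes of the amino acid stress response that ATF4 controls, namely ATF4, ATF3, ASNS, PSAT1, PHGDH, CHAC1, TRIB3, DDIT3, SESN2 and SLC7A5. They were taken by name from a table of 38021 gene names, of which 26938 had at least 1 count, and all 10 were found there. RNA was sequenced from 786-O cells, which come from a clear cell renal carcinoma and lack functional VHL, and from WT8 cells, which are 786-O cells with wildtype VHL added back. Both carried a lentiviral pLKO.1 vector with a scrambled control shRNA (shControl) or with 1 shRNA against BMAL1 (shBMAL1), and all 4 groups had been selected and kept in puromycin. The groups had 3 replicates each, called biological replicates in the labels, and whether these came from separate infections is not stated, so that p-values measure the spread between these cultures only. WT8 is a single derived line, and the BMAL1 results rest on a single hairpin.

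ATF4 is a basic leucine zipper transcription factor whose mRNA is translated more efficiently when the initiation factor eIF2 is phosphorylated, as happens in amino acid shortage, endoplasmic reticulum stress or heme deficiency. With partners of the C/EBP family it binds C/EBP-ATF response elements and raises transcription of genes for amino acid synthesis, amino acid uptake and feedback on the response. Much of ATF4 control is translational, so that transcript levels of ATF4 and its targets are a partial view of the pathway. BMAL1 is a basic helix-loop-helix factor of the circadian clock that binds E-boxes, and VHL marks the alpha subunits of hypoxia-inducible factors for degradation.

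The 10 genes fall into roles. ATF4 and ATF3 are transcription factors, and DDIT3 encodes CHOP, a factor of the same class that is tied to prolonged stress. ASNS makes asparagine, while PHGDH and PSAT1 catalyse the opening steps of serine synthesis. SLC7A5 is the LAT1 transporter of leucine and other large neutral amino acids. CHAC1 breaks down glutathione, TRIB3 is a pseudokinase that acts back on ATF4, and SESN2 is a leucine-binding inhibitor of mTORC1.

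The sequences around the motifs found near the starts of these genes are shown because the members differed in which motif they carry. RefSeq windows from 250 bases before to 50 after each start (GRCh38.p14) matched all 10 members, with 16 windows among them. They were searched on both strands for the C/EBP-ATF response element TGATGNAAN, for the E-box CACGTG that BMAL1 and its partners bind, and for ACGTG and GCGTG, the cores of hypoxia response elements, of which ACGTG also lies inside each CACGTG. Each stretch of 30 bases was then placed on GRCh37 by exact match, and capitals mark the motif, in CHAC1 as its reverse complement.
ATF3, chr1:212738548-212738577, plus strand: aaggtcaggaTGATGGAAGgctgtcatatt
ASNS, chr7:97501769-97501798, minus strand: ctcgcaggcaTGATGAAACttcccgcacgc
CHAC1, chr15:41245449-41245478, plus strand: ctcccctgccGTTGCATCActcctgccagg
ATF4, chr22:39916470-39916499, plus strand: ggaggagacggtCACGTGgtcgcggcggaa
SLC7A5, chr16:87903226-87903255, minus strand: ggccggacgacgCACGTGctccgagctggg

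TGATGNAAN was found in 3 of the 10 members (ATF3 at position -191 from the start, ASNS at -68 and CHAC1 at -210), against 4.45% of 27305 genes with a window and 3.611% of 35116 windows. CACGTG was found in ATF4 at -82 and in SLC7A5 at -130, against 8.775% of genes. ACGTG occurred in the same 2 members and in 24.87% of genes, and GCGTG in 7 members and in 40.57% of genes. The stretches of ATF3 and SLC7A5 lie upstream of the GENCODE gene. Those of ASNS, CHAC1 and ATF4 lie in a UTR exon of 3 of 17, 1 of 3 and 1 of 11 annotated transcripts of the gene. The SLC7A5 stretch occurs at 2 places on chromosome 16, where this gene has near-identical partial copies. A match describes letters only, and no binding was measured here.

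**Figure D1:**
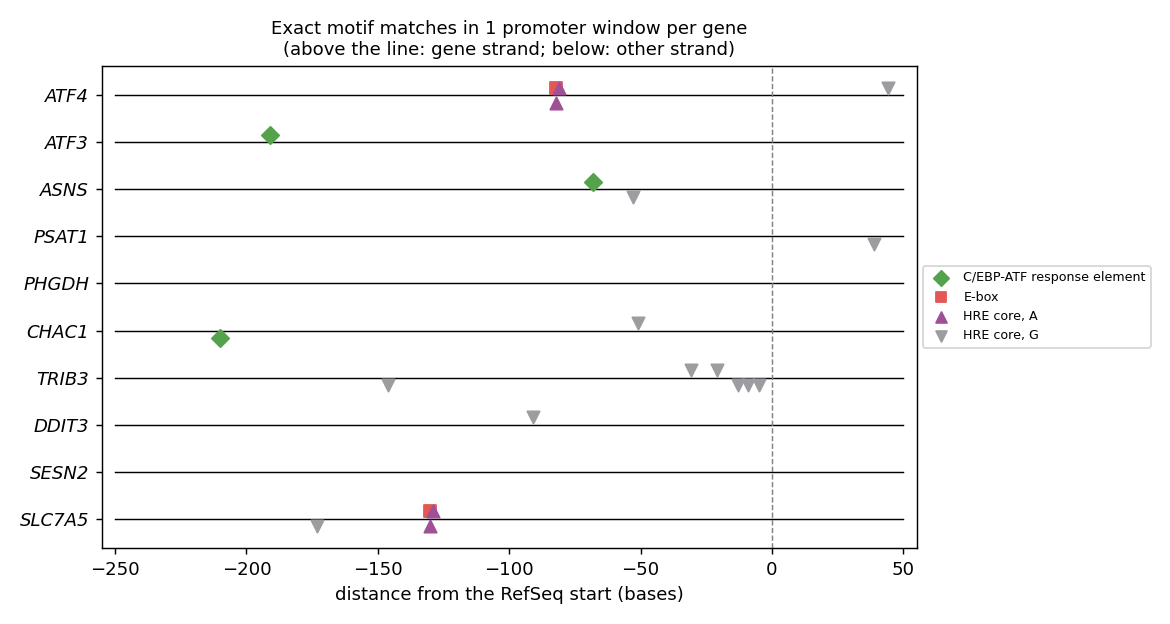
Exact motif matches in 1 RefSeq promoter window per gene, placed by distance in bases from the annotated start, with marks above the line for the strand of the gene and below it for the other strand. The C/EBP-ATF response element appears in ATF3, ASNS and CHAC1, and the E-box in ATF4 and SLC7A5.

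Totals ran from 33182025 to 36477509 counts in the 12 libraries, and 16838 genes were tested. The labels held at their targets. BMAL1, listed as ARNTL, was lower with shBMAL1 by -1.62 (SE 0.13) on the log2 scale in 786-O and by -2.48 (SE 0.14) in WT8, and VHL was at 18.8 ± 1.58 CPM (SD, n = 3) in 786-O shControl and 981 ± 56.5 CPM in WT8 shControl. VHL itself was lower in WT8 with shBMAL1, at 647 ± 15.0 CPM. The 6 renal line markers were detected in all groups, while the 8 markers of blood, endothelial, epithelial and liver cells summed to 0.478 to 10.7 CPM, with CD3E at 0 in every group and PTPRC at 0 in 3 of the 4. The epithelial marker EPCAM differed between the lines. Its mean was 9.23 and 5.54 CPM in 786-O shControl and shBMAL1, and 0.0193 and 0.0623 CPM in WT8 shControl and shBMAL1. PECAM1 had 21 to 32 counts and CD14 had 14 to 17 counts in WT8 shControl. WT8 shControl stood apart in proliferation genes, a list of 10 such as MKI67 and CCNB1, whose summed level was 505 to 533 CPM there and 2261 to 2586 CPM in the other 3 groups. All 10 were called higher with shBMAL1 in WT8 (median log2 change 2.20), against 32.9% of all genes. All 10 were called lower in WT8 than in 786-O with shControl (median -1.93), against 40.1% of all genes. This moves with every comparison below that uses WT8 shControl, and its part in those results was not tested. In such bulk RNA a lower level in fewer cells and a lower level in every cell cannot be told apart.

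Of the 10 members, 9 had enough counts to be tested. PHGDH (GRCh37 chromosome 1, 120191034 to 120286841, plus strand), the enzyme that opens serine synthesis from glucose, was at the limit of detection. It had 3, 2 and 2 counts in 786-O shControl, 0 counts in all replicates of 786-O shBMAL1 and of WT8 shControl, and 0, 1 and 2 counts in WT8 shBMAL1. With at most 3 counts in every library, no fold change is given. Annotation and treatment of multiply aligned reads are not given, so a low transcript level and loss of its reads in counting cannot be told apart. A count of 0 allows up to 3 counts, or 0.0834 CPM in WT8 shControl.

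Levels of different genes were compared as CPM per kilobase of merged exons. The annotation used for counting is not known, so the order of genes with close levels depends on the length used. Before division by length, ASNS (168 CPM) lay above TRIB3 (128 CPM) in 786-O shControl. In 786-O shControl, SLC7A5 was highest with a level of 244 ± 5.47 CPM per kilobase, followed by ATF4 with 139 ± 5.32 and PSAT1 with 131 ± 5.53, whose replicates overlapped. TRIB3 followed with 38.8 ± 1.08, ASNS with 34.3 ± 0.872, SESN2 with 14.6 ± 0.619 and DDIT3 with 9.88 ± 0.790 CPM per kilobase. ATF3 (2.91 ± 0.210) and CHAC1 (2.69 ± 0.161) were lowest among the tested genes and overlapped. The order differed between groups. In WT8 shBMAL1, ATF4 was highest with 143 ± 4.41 CPM per kilobase, above PSAT1 (121 ± 4.99) and SLC7A5 (105 ± 4.11), while ATF3, CHAC1 and DDIT3 lay between 9.18 and 10.3 CPM per kilobase.

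To ask what loss of BMAL1 did to this program in cells without VHL, shBMAL1 was compared with shControl in 786-O. Of the 9 tested members, 8 fell and ATF3 rose. Over all genes, 24.4% were called lower and 24.5% higher at an adjusted p under 0.1, and the median log2 change was -0.66 for the members and 0.00 for all genes. The lowest log2 changes were those of SLC7A5 (-1.06) and CHAC1 (-1.05), and the smallest fall was that of SESN2 (-0.17). The groups did not overlap in CPM for any of the 9, and the share of all genes without overlap is not given here.

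ATF4 itself (chromosome 22, 39915700 to 39918688, plus strand) had 349, 369 and 375 CPM in the 3 replicates of 786-O shControl and 260, 269 and 248 CPM with shBMAL1. Each shBMAL1 replicate lay below each control replicate. The fall was 1.41-fold, a log2 change of -0.49 (SE 0.04, adjusted p 8.95e-12 in the edgeR test). SLC7A5 (chromosome 16, 87863629 to 87903113, minus strand) had 1172, 1180 and 1131 CPM with shControl and 540, 560 and 568 CPM with shBMAL1, a 2.09-fold fall (log2 -1.06, SE 0.04, adjusted p 3.92e-21 in edgeR). It combined the highest level of the set with the lowest log2 change. How reads shared with its near-identical copies were counted is not stated, so its value is uncertain to that degree.

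The 2 tested synthesis enzymes fell as well. PSAT1 (chromosome 9, 80912041 to 80945009, plus strand) went from 276, 300 and 291 CPM to 161, 164 and 168 CPM, 1.76-fold lower (log2 -0.81, SE 0.04, adjusted p 4.75e-17). ASNS (chromosome 7, 97480989 to 97501854, minus strand) went from 163 to 171 CPM with shControl to 103 to 111 CPM with shBMAL1 (log2 -0.63, SE 0.05, adjusted p 1.1e-13). A long non-coding RNA gene on the same strand overlaps ASNS by 20855 bases, and its name is not among those counted. Its part in the ASNS value was not tested.

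The feedback and stress effectors moved the same way in this line. TRIB3 (chromosome 20, 343479 to 378203, plus strand) had 125, 132 and 127 CPM with shControl and 80.8, 81.0 and 80.1 CPM with shBMAL1 (log2 -0.66, SE 0.05, adjusted p 4.53e-13). CHAC1 (chromosome 15, 41245160 to 41248710, plus strand) had 5.13, 5.75 and 5.66 CPM with shControl and 2.24, 2.71 and 3.05 CPM with shBMAL1 (log2 -1.05, SE 0.13, adjusted p 1.35e-08). These CHAC1 values rest on 176 to 201 and 78 to 106 counts, the smallest among the tested members. DDIT3 (chromosome 12, 57910371 to 57915520, minus strand) went from 12.9 ± 1.03 to 8.08 ± 1.10 CPM (log2 -0.68, SE 0.11, adjusted p 2.1e-06). DDIT3 overlaps 2 genes on the other strand, MBD6 by 1028 bases and MARS by 982 bases, and whether counting used strand is not stated. On its own strand it overlaps a further protein-coding gene by 2769 bases, whose name is not among those counted. MARS was at 402 CPM in 786-O shControl and 249 CPM in 786-O shBMAL1 (log2 -0.69), and MBD6 at 42.8 ± 3.99 and 52.5 ± 1.24 CPM (log2 0.29), and their part in the DDIT3 value was not tested. SESN2 (chromosome 1, 28586029 to 28609002, plus strand) had the smallest change, from 50.6 ± 2.14 to 44.9 ± 3.30 CPM (log2 -0.17, SE 0.06, adjusted p 0.0152). Without 786-O shBMAL1 replicate 1, which had 41.3 CPM, its log2 change was -0.12 with an adjusted p of 0.142 in edgeR.

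ATF3 (chromosome 1, 212738676 to 212794119, plus strand), which many stress signals besides ATF4 induce, was the exception. It had 11.0, 11.3 and 12.6 CPM with shControl and 16.7, 19.6 and 18.5 CPM with shBMAL1 in 786-O, a 1.57-fold rise (log2 0.65, SE 0.09, adjusted p 2.18e-07).

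**Figure D2:**
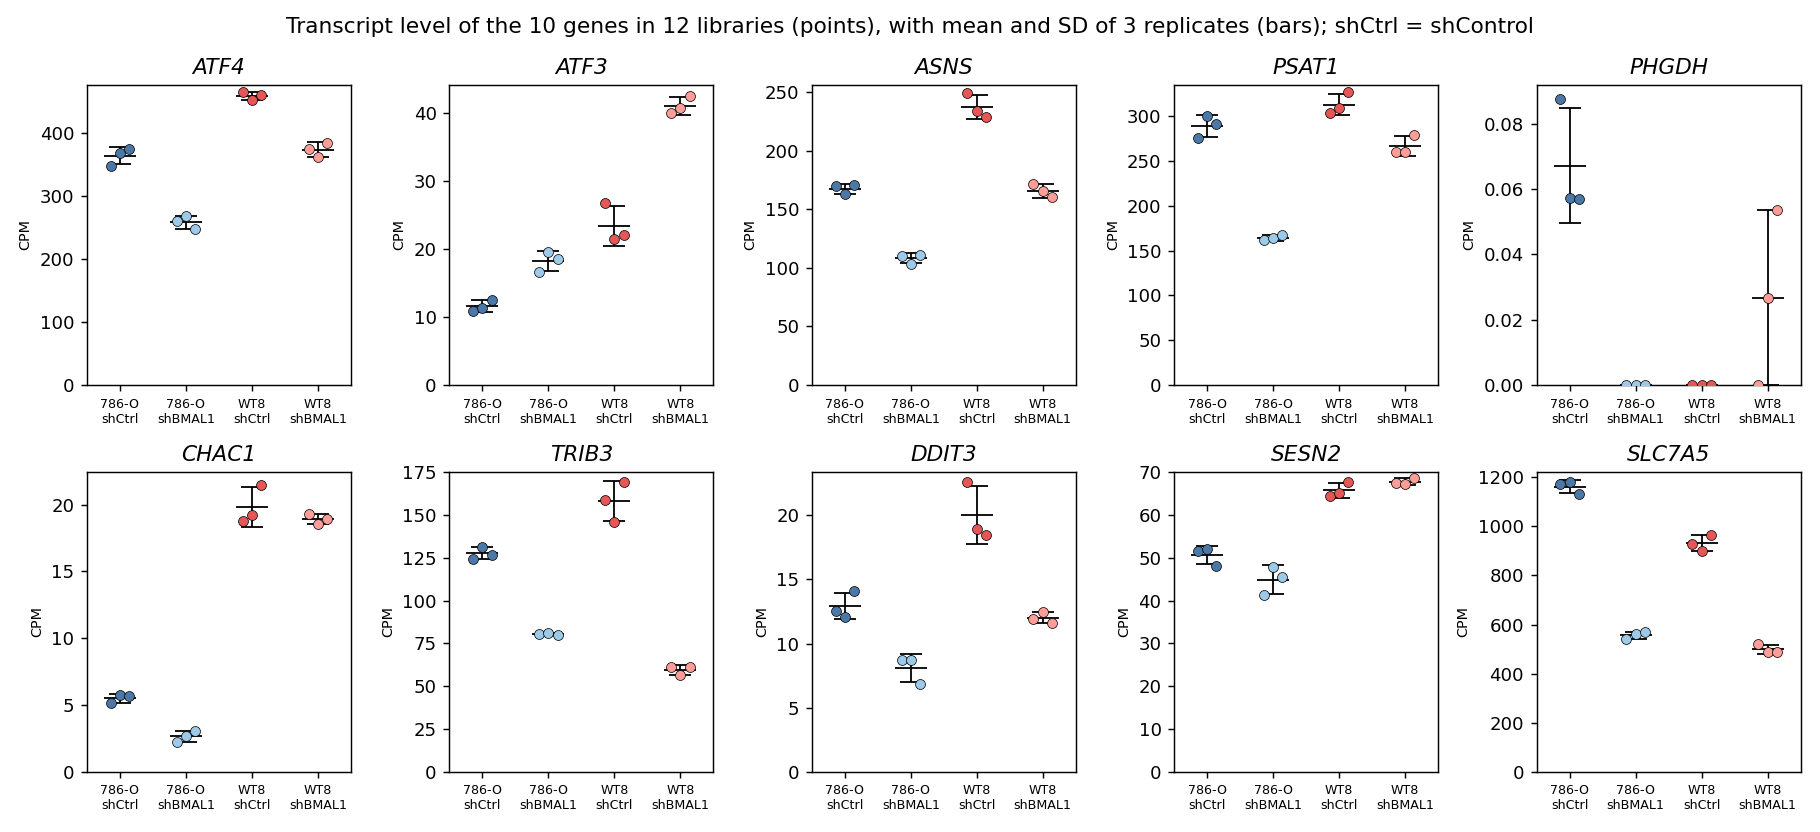
CPM of each of the 10 genes in the 12 libraries (points) with the mean and SD of 3 replicates (bars), by group and with a separate vertical scale from 0 for each gene. ATF3 was higher and the other tested genes lower with shBMAL1 in 786-O, and CHAC1 lay between 2.24 and 5.75 CPM in 786-O and between 18.6 and 21.5 CPM in WT8.

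The same comparison in WT8 asked whether the effect was also present with VHL. Of the 9 tested members, 6 fell, ATF3 rose, and CHAC1 and SESN2 were not called. Over all genes, 36.9% were called lower and 32.9% higher, so that 6 of 9 lower is to be read against a high background, and the median log2 change was -0.30 for the members and -0.04 for all genes. The proliferation list moved with this comparison, as given above.

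TRIB3 showed the lowest log2 change in WT8. It had 159, 146 and 169 CPM with shControl and 61.4, 56.4 and 61.5 CPM with shBMAL1, a 2.65-fold fall (log2 -1.40, SE 0.05, adjusted p 4.77e-23). SLC7A5 went from 929, 900 and 965 CPM to 521, 487 and 488 CPM, 1.87-fold lower (log2 -0.90, SE 0.04, adjusted p 4.8e-20). Neither gene had overlapping groups. DDIT3 had 18.4 to 22.6 CPM with shControl and 11.6 to 12.5 CPM with shBMAL1 (log2 -0.74, SE 0.10, adjusted p 3.92e-08), while the overlapping MARS and MBD6 were called higher, at log2 changes of 0.13 and 0.63. ASNS had 229 to 249 CPM with shControl and 160 to 172 CPM with shBMAL1 (log2 -0.52, SE 0.05, adjusted p 2.53e-12).

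ATF4 and PSAT1 fell less far on the log2 scale in WT8 than in 786-O. ATF4 had 465, 453 and 460 CPM in WT8 shControl and 375, 362 and 385 CPM in WT8 shBMAL1 (log2 -0.30, SE 0.04, adjusted p 1.71e-07). PSAT1 had 304, 309 and 327 CPM and then 260, 261 and 279 CPM (log2 -0.23, SE 0.04, adjusted p 2.17e-05). Neither pair of groups overlapped. CHAC1 had 18.8, 19.2 and 21.5 CPM with shControl and 19.3, 18.6 and 18.9 CPM with shBMAL1, so that the groups overlapped (log2 -0.07, SE 0.09, adjusted p 0.526). SESN2 overlapped too, at 65.8 ± 1.72 and 67.8 ± 0.805 CPM (log2 0.04, SE 0.06, adjusted p 0.499). ATF3 again rose, from 26.8, 21.5 and 22.0 CPM to 40.0, 40.8 and 42.6 CPM, 1.76-fold (log2 0.81, SE 0.08, adjusted p 6.37e-11).

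Across both lines, ATF4, ASNS, PSAT1, TRIB3, DDIT3 and SLC7A5 were called lower in each, which is 6 of the 9 tested members and compares with 13.6% of all tested genes. ATF3 was called higher in each. The knockdown comparisons of the 2 lines share no library, but they share the hairpin, the parent line and the fit. They are therefore not independent of each other.

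**Figure D3:**
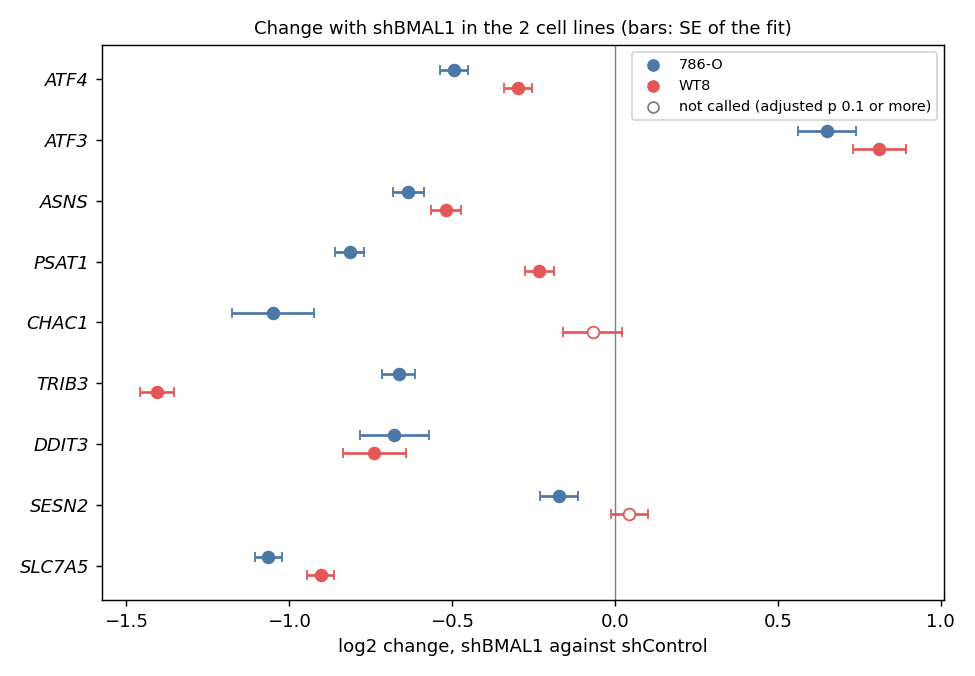
Log2 change with shBMAL1 against shControl for the 9 tested genes in 786-O and in WT8, with the SE of the edgeR fit as bars and open points for genes not called at an adjusted p under 0.1. ATF3 lies on the positive side in both lines, TRIB3 lies lower in WT8 than in 786-O, and PSAT1 and CHAC1 lie lower in 786-O than in WT8.

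The interaction (the shBMAL1 response of WT8 minus the response of 786-O, on the log2 scale) tested whether the lines differed in these responses. Over all genes, 27.4% had a called positive and 28.6% a called negative interaction. Of the 9 members, 5 had a positive one, that is, a response in WT8 that was less negative or was not called. These were CHAC1 (0.98, SE 0.16, adjusted p 1.82e-06), PSAT1 (0.58, SE 0.06, adjusted p 7.86e-10), SESN2 (0.22, SE 0.08, adjusted p 0.0238), ATF4 (0.20, SE 0.06, adjusted p 0.0067) and SLC7A5 (0.16, SE 0.06, adjusted p 0.0223). TRIB3 alone of the 9 members was called negative (-0.74, SE 0.07, adjusted p 8.23e-11). The interaction was not called for ASNS (0.12, SE 0.06, adjusted p 0.138), ATF3 (0.16, SE 0.12, adjusted p 0.281) or DDIT3 (-0.06, SE 0.14, adjusted p 0.767).

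Single libraries decided 2 of these calls. ATF3 passed without WT8 shControl replicate 1, the highest of its group at 26.8 CPM (0.27, adjusted p 0.0593 in edgeR). ASNS passed in 4 of the 12 fits that each left out 1 library, namely 786-O shControl replicate 2 (0.14), 786-O shBMAL1 replicate 3 (0.14), WT8 shControl replicate 1 (0.15) and WT8 shBMAL1 replicate 3 (0.15).

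The lines were then compared at the same shRNA, to ask how VHL status went with the level of the program. These comparisons use the same libraries as those above and are not independent of them. With shControl, 8 of the 9 tested members were higher in WT8 and SLC7A5 was lower, where 39.3% of all genes were called higher and 40.1% lower. The median log2 difference was 0.38 for the members and 0.00 for all genes. With shBMAL1, 7 members were higher in WT8 and TRIB3 and SLC7A5 were lower, where 35.9% of all genes were called higher and 37.1% lower. The median difference was then 0.59 for the members.

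CHAC1 differed most between the lines. It was 3.60-fold higher in WT8 than in 786-O with shControl (log2 1.85, SE 0.10, adjusted p 3.11e-18) and 7.11-fold higher with shBMAL1 (log2 2.83, SE 0.11, adjusted p 2.79e-22). ATF3 was 2.02-fold higher with shControl and 2.25-fold higher with shBMAL1. ATF4 was higher by 0.33 (SE 0.04, adjusted p 1.02e-08) and by 0.53 (SE 0.04, adjusted p 2.32e-13) on the log2 scale, and ATF4 in WT8 shBMAL1 (362 to 385 CPM) overlapped ATF4 in 786-O shControl (349 to 375 CPM). ASNS (0.50 and 0.62), DDIT3 (0.63 and 0.57) and SESN2 (0.38 and 0.59) were higher in WT8 with both shRNAs.

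PSAT1 was 1.08-fold higher in WT8 with shControl (log2 0.12, SE 0.04, adjusted p 0.0176), a call that was lost without 786-O shControl replicate 1 or without WT8 shControl replicate 3 (log2 0.08 in each), and 1.62-fold higher with shBMAL1 (log2 0.70, SE 0.04, adjusted p 3.96e-16). TRIB3 was higher in WT8 with shControl (log2 0.31, SE 0.05, adjusted p 1.2e-06) and lower with shBMAL1 (log2 -0.43, SE 0.05, adjusted p 4.89e-09). SLC7A5 was lower in WT8 with shControl (log2 -0.32, SE 0.04, adjusted p 1.8e-08) and with shBMAL1 (log2 -0.16, SE 0.04, adjusted p 0.00121). With scaling by library totals alone, which moved the median of all genes by 0.10 in the shBMAL1 comparison, the SLC7A5 difference was -0.05 and not called.

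**Figure D4:**
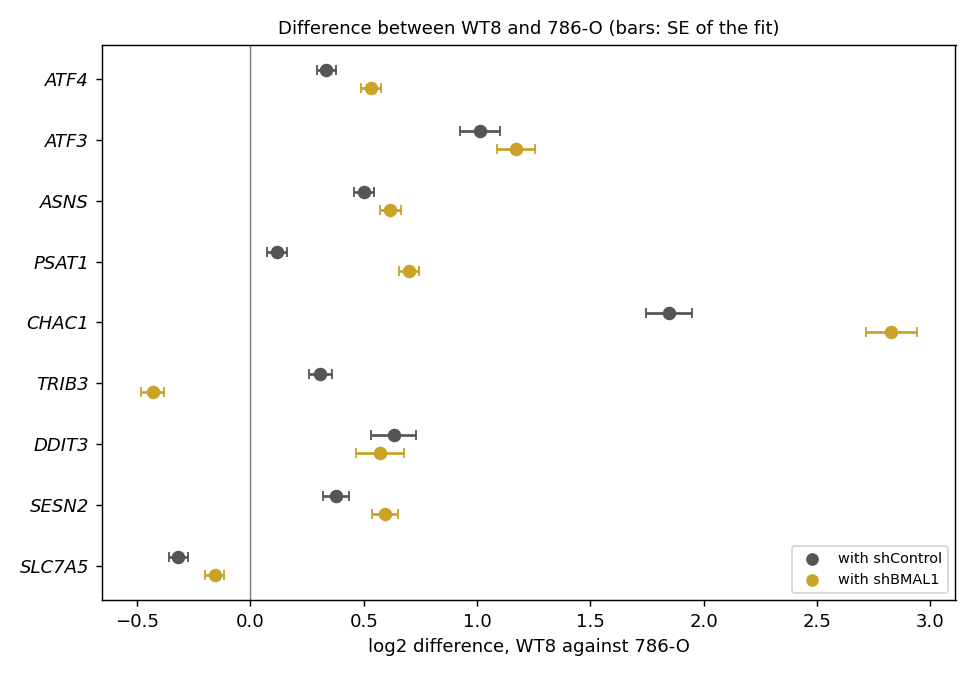
Log2 difference between WT8 and 786-O for the 9 tested genes with shControl and with shBMAL1, with the SE of the edgeR fit as bars. CHAC1 lies farthest to the right with both shRNAs, SLC7A5 lies below 0 with both, and TRIB3 changes side.

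The wider pathway was described with 104 further genes in 7 lists, of which 100 were tested. Each gene was counted once in the totals over all lists. With shBMAL1 in 786-O, 48 were called lower and 23 higher, where 24.4% and 24.5% of all genes were so called, with a median log2 change of -0.13. In WT8, 45 were lower and 31 higher, where the shares of all genes were 36.9% and 32.9%, with a median of -0.09. In both lines 24 of the 100 were called lower, against 13.6% of all genes, and 12 higher, against 12.4%. Opposite directions were called for 19, against 12.1% of all genes. The list of 26 further tested ATF4 target genes held 17 lower and 4 higher in 786-O (median -0.50) and 15 lower and 8 higher in WT8 (median -0.39). Many of these genes, such as SLC3A2 and CTH, also stand in the eIF2, bZIP, transporter or enzyme lists below. Counts of different lists are therefore not separate results. GDF15, a secreted stress hormone, fell from 68.6 ± 2.74 to 32.3 ± 2.08 CPM in 786-O (log2 -1.09) and from 37.5 ± 3.92 to 3.66 ± 0.814 CPM in WT8 (log2 -3.36). INHBE, an activin subunit, fell in both lines (log2 -1.56 and -1.79), on 5 to 33 counts per library in 786-O and 345 to 1282 in WT8.

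Upstream of ATF4, the 18 eIF2 signalling genes had medians of -0.01 in 786-O and 0.02 in WT8, with 6 lower and 3 higher in 786-O and 3 lower and 7 higher in WT8. The shares of all genes called lower and higher were 24.4% and 24.5% in 786-O and 36.9% and 32.9% in WT8. EIF2AK3, the eIF2 kinase PERK, rose in both lines, from 36.1 ± 0.367 to 48.2 ± 1.03 CPM in 786-O (log2 0.42) and from 15.0 ± 2.11 to 36.4 ± 0.484 CPM in WT8 (log2 1.28). EIF2AK4, the amino acid-sensing kinase GCN2, rose in WT8 (log2 0.56) and had a log2 change of -0.09 in 786-O that was not called. PPP1R15A, the phosphatase subunit GADD34 and itself a target of the pathway, fell in WT8 (log2 -0.61) and was not called in 786-O (log2 0.10). EIF2S2, the beta subunit of eIF2, fell by 0.72 on the log2 scale in 786-O and by 0.16 in WT8.

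Among 15 bZIP partners and regulators, 5 fell and 6 rose in 786-O and 10 fell and 1 rose in WT8 (medians -0.10 and -0.70). Among all genes, 24.4% fell and 24.5% rose in 786-O and 36.9% fell and 32.9% rose in WT8. JDP2, a repressor that shares binding sites with ATF3, fell in 786-O from 9.04 ± 0.519 to 2.95 ± 0.566 CPM (log2 -1.61) and was not called in WT8 (log2 -0.18). ATF5, a close relative of ATF4, fell in both lines (log2 -0.45 and -1.08). FOS moved in opposite directions, up in 786-O (log2 0.88) and down in WT8 (log2 -2.27). NFE2L2, the factor NRF2, was the 1 gene of this list that rose in WT8 (log2 0.51).

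Of 17 amino acid transporters, 9 fell and 4 rose in 786-O and 8 fell and 6 rose in WT8. The corresponding shares of all genes were 24.4% and 24.5% in 786-O and 36.9% and 32.9% in WT8. SLC3A2, the heavy chain that carries SLC7A5 to the membrane, went from 519 ± 19.0 to 269 ± 2.34 CPM in 786-O and from 550 ± 11.5 to 285 ± 10.8 CPM in WT8. Its log2 change was -0.95 (SE 0.04) in each line, next to -1.06 and -0.90 for SLC7A5, and its interaction was 0.00 (SE 0.06, adjusted p 0.992). SLC7A11, the cystine importer that uses the same heavy chain, fell in 786-O (log2 -0.97) and rose in WT8 (log2 0.69). Its interaction was 1.66 (SE 0.10, adjusted p 6e-16). SLC7A1, the transporter of arginine and lysine, rose in both lines (log2 0.54 and 0.73).

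The serine, glycine and one-carbon enzymes next to PSAT1 differed between the lines. Of 10 tested, 8 fell and 1 rose in 786-O (median -0.70), and 3 fell and 7 rose in WT8 (median 0.51). Of all genes, 24.4% fell and 24.5% rose in 786-O, and 36.9% fell and 32.9% rose in WT8. The interaction was called positive for 9 of the 10, against 27.4% of all genes. PSPH, which completes serine synthesis, fell from 44.9 ± 1.15 to 19.6 ± 0.683 CPM in 786-O (log2 -1.20) and rose from 23.1 ± 2.92 to 29.0 ± 1.25 CPM in WT8 (log2 0.33). MTHFD2, the mitochondrial folate enzyme, was named after its values were seen, and fell in 786-O (log2 -0.89) and rose in WT8 (log2 0.56). SHMT2, which makes glycine from serine in mitochondria, fell in both (log2 -0.66 and -0.53). ALDH1L2, another mitochondrial folate enzyme, fell in 786-O from 14.8 ± 0.741 to 5.04 ± 0.488 CPM. In WT8 shControl it had 0 to 3 counts, at least 177-fold lower than in 786-O shControl, and WT8 shBMAL1 with 8 to 13 counts was at least 3.20-fold higher, both against a floor of 3 counts per library. Some genes of this list also serve DNA synthesis, and the proliferation list rose with shBMAL1 in WT8 as given above.

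Of 14 tested other amino acid enzymes, 8 fell and 5 rose in each line. The shares of all genes that fell and rose were 24.4% and 24.5% in 786-O and 36.9% and 32.9% in WT8. CTH, which makes cysteine from cystathionine, fell from 20.1 ± 0.862 to 4.36 ± 0.394 CPM in 786-O (log2 -2.21) and from 19.9 ± 0.973 to 13.9 ± 2.06 CPM in WT8 (log2 -0.52). Its interaction was 1.69 (SE 0.14, adjusted p 1.85e-12). GPT2, the mitochondrial alanine aminotransferase, fell in both (log2 -1.38 and -1.02). Of 16 tested genes of leucine and arginine sensing at mTORC1, where SESN2 acts, 6 fell and 3 rose in 786-O and 7 fell and 3 rose in WT8. These counts are to be read against the same shares of all genes. RRAGA, a Rag GTPase of that pathway, fell in WT8 (log2 -1.03) and was not called in 786-O (log2 -0.07).

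Between the lines, 43 of the 100 tested pathway genes were higher and 38 lower in WT8 with shControl, near the 39.3% and 40.1% of all genes. With shBMAL1, 50 were higher and 35 lower, where 35.9% and 37.1% of all genes were. The interaction was called positive for 44 and negative for 28, against 27.4% and 28.6% of all genes. INHBE was the highest of the further ATF4 targets in this contrast, at 0.909 ± 0.0548 CPM in 786-O shControl and 33.8 ± 2.02 CPM in WT8 shControl (log2 5.21, SE 0.15, adjusted p 1.32e-25).

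**Figure D5:**
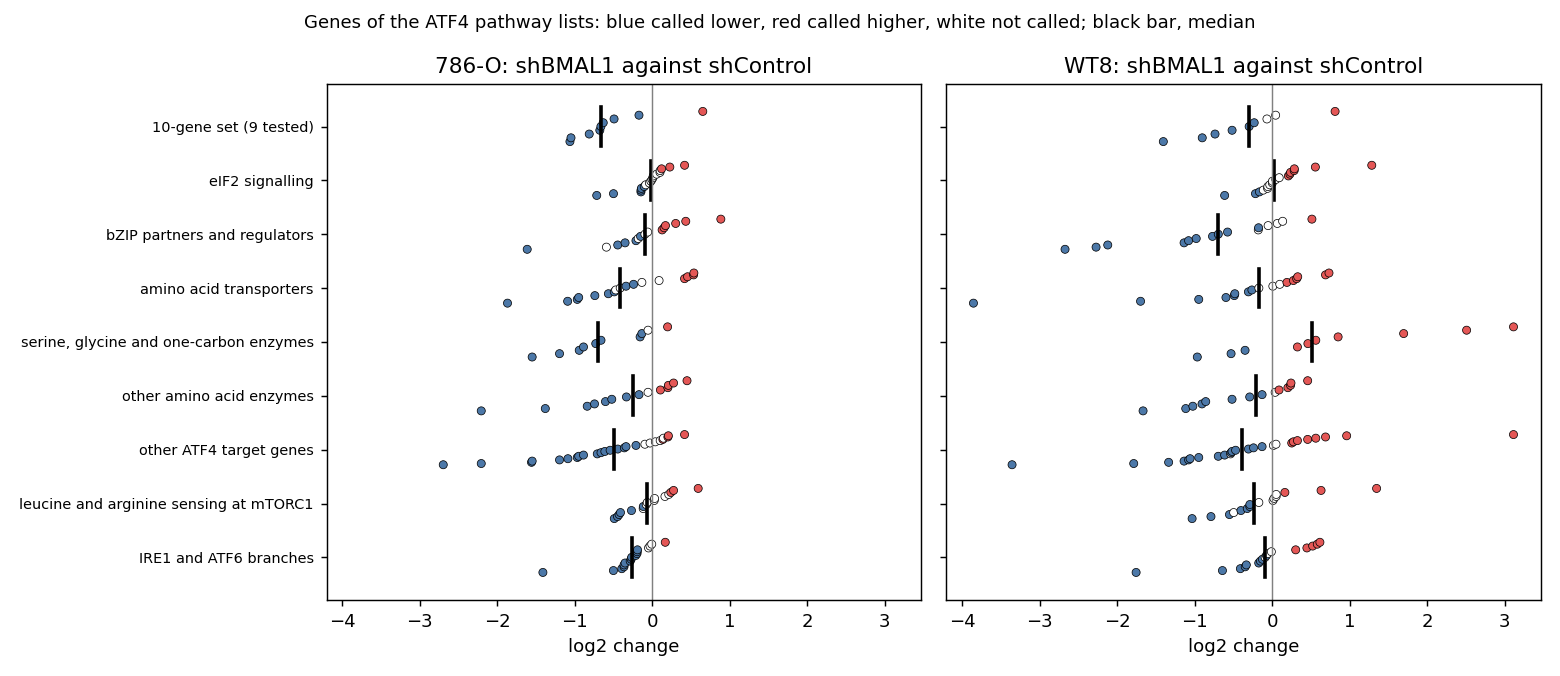
Log2 change with shBMAL1 in 786-O (left) and WT8 (right) for each tested gene of the 10-gene set, of 7 pathway lists and of the IRE1 and ATF6 branches, with blue for called lower, red for called higher, white for not called and a black bar for the median. The median of the serine, glycine and one-carbon enzymes lies at -0.70 in 786-O and 0.51 in WT8. The points of ALDH1L2 and SLC7A8 in WT8 are fitted against groups with at most 3 counts per library, and the medians are the same with these genes at their bounds.

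Across the 12 libraries the members followed ATF4 to different degrees. On log2 CPM, Pearson's r with ATF4 was 0.98 for ASNS, 0.95 for DDIT3, 0.95 for PSAT1, 0.87 for CHAC1, 0.80 for SESN2, 0.53 for TRIB3, 0.48 for SLC7A5 and 0.25 for ATF3. The libraries form 4 groups and share cell line and shRNA within a group, so these are descriptions with no test. Of 12939 other genes with a mean of at least 50 counts, those most like ATF4 were PLAGL1 (r 0.98), N4BP3 (0.98), LOC105371893 (0.98), FAM129A (0.98) and SLC33A1 (0.98). Those most like the mean z-score of the 9 tested members were N4BP3 (0.99), FAM129A (0.99), RACK1 (0.99), PLAGL1 (0.99) and TNKS2 (0.98). FAM129A, also called NIBAN1, had 140, 56.6, 300 and 141 CPM as means of 786-O shControl, 786-O shBMAL1, WT8 shControl and WT8 shBMAL1.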

How the data were processed

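Stranded mRNA libraries of 12 cultures were sequenced as read pairs. The study's methods name alignment to GRCh37 with SeqMan NGen and export of counts with ArrayStar, whereas the submitters' processing notes name STAR, DESeq2 and hg38, and which of them made the table was not settled. Annotation, use of strand and treatment of multiply aligned reads are not given in the sources used here. The authors deposited estimated counts per gene, unscaled between libraries. In the deposited values 0.028 stood in for 0 (47.0% of values) and was set to 0, and 5.67% of the others were not whole and were rounded. The 45 names on several lines (98 of 38074 lines) were summed.

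Genes were filtered with filterByExpr, scaled by TMM (factors 0.948 to 1.04) and fitted with a mean per group over 12 libraries in edgeR 4.0.16 (R 4.3.3, robust quasi-likelihood F test). Benjamini-Hochberg adjustment ran over the 16838 genes kept, and an adjusted p under 0.1 was called. All adjusted p-values are from this test. The SE was taken as the size of the change over the root of F. CPM is the count scaled to a common TMM-adjusted total, and error terms are SD over n = 3. The common biological coefficient of variation was 5.70%, and replicates differed beyond counting error (chi-square per gene 4.51 to 12.6). Floors of 3 counts cover counting error only, and mates of a pair may have been counted separately. The procedure was run on simulated counts in which few genes changed, in a single group. Many genes were called in these data, so that run does not bear on the error rate here. Positions are from GENCODE on GRCh37.

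The members and lists were chosen with earlier results of these data known. Named pathway genes are, per list and comparison, at most the 2 largest called rises and 2 largest called falls with a mean of at least 50 counts, and a gene named in 1 comparison is also given in others. Of the genes this rule gives, some are not reported here. Correlations used log2 CPM with a prior count of 2. Alternatives were other scalings, no filter, DESeq2 1.42.0, a replicate block, only the groups compared, each library left out, and a fold threshold of 1.5.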

Additional observations from a re-analysis of the deposited data

Results flagged for a closer look

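The change with shBMAL1 differed between the lines, by the edgeR interaction test, for 6 of the 9 tested genes. On the log2 scale, the response of WT8 minus that of 786-O was 0.20 for ATF4, 0.58 for PSAT1, 0.98 for CHAC1, 0.22 for SESN2, 0.16 for SLC7A5 and -0.74 for TRIB3. Of these, 5 were positive and 1 negative. Over all genes, 27.4% had a called positive and 28.6% a called negative interaction. The count of 6 of 9 is to be read against this high background. The summed proliferation level of WT8 shControl was 505 to 533 CPM against 2261 to 2586 CPM in the other groups, and its part in these differences was not tested. BMAL1 itself fell further with shBMAL1 in WT8 than in 786-O (interaction -0.86), and the part of this was not tested either.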

How the results depend on the processing

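Of 846 member values under alternatives, 808 kept their direction and their side of the threshold, 30 were no longer called, 5 became called and 3 changed sign. The 3 were the uncalled DDIT3 interaction, at 0.0054 without 786-O shBMAL1 replicate 1, 0.0077 without 786-O shBMAL1 replicate 2 and 0.0389 without WT8 shControl replicate 1, in a range of -0.162 to 0.0389 over the fits that left out 1 library. The cause was not tested. Counts of calls stayed within 1.5 times under every alternative except the test for a fold over 1.5, which by construction calls fewer genes. In the order 786-O knockdown, WT8 knockdown, lines with shControl, lines with shBMAL1 and interaction, it called 3, 4, 2, 3 and 2 members, 21, 32, 45, 34 and 28 pathway genes, and 990, 4314, 6992, 5024 and 3133 of all genes. With a replicate block, 9, 7, 9, 9 and 6 members were called, the same counts as without it, and no member's call changed. Replicate numbers did not pair the libraries, since deviations of same-numbered libraries correlated at -0.0461 to 0.0476 over 18 pairs. Fits that left out 1 replicate changed the calls of SESN2, PSAT1, ATF3 and ASNS given above and no other member's. CHAC1 in 786-O, with 78 to 201 counts per library, and PHGDH are the members that depth limits most.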

Other observations

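The IRE1 and ATF6 branches of the unfolded protein response, were described by a list of 17 genes, of which those named here were chosen after their values were seen. With shBMAL1, 13 were called lower and 1 higher in 786-O (median log2 -0.27), and 9 lower and 5 higher in WT8 (median -0.09). Of all genes, 24.4% were called lower and 24.5% higher in 786-O (median 0.00). In WT8 these shares were 36.9% and 32.9% (median -0.04). HYOU1, a chaperone of the endoplasmic reticulum, was lower in both lines (log2 -1.41 and -1.76), and so was HSPA5, the chaperone BiP (log2 -0.29 and -0.41). XBP1, the factor spliced by IRE1, was lower in 786-O (log2 -0.21) and higher in WT8 (log2 0.62). Between the lines with shControl, 15 of the 17 were lower in WT8 and 1 was higher (median -0.73), where 40.1% of all genes were called lower and 39.3% higher.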
